A study of Mus musculus with 28 samples.

Results

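Interferon-stimulated effector genes encode the proteins through which a cell resists infection after it has sensed a type I interferon. A list of 43 of these genes was fixed by symbol, and all 43 were found among the 40021 genes of the deposited expression table, which holds 28 single mouse retinas. The members were grouped by function into the IFIT family (4 genes), the ISG15 system (3), the OAS family (6), nucleic acid sensing and editing (7), antiviral enzymes and GTPases (5), PARP proteins with Dtx3l (4), nuclear proteins (5) and other effectors (9). All retinas came from male heterozygotes of the strain Cx3cr1CreER:R26-tdTomato (C57BL/6), in which a tamoxifen-dependent Cre under the control of the fractalkine receptor locus switches on a red fluorescent protein. Tamoxifen was given to the eye for 3 days at 4 to 5 weeks of age, and endotoxin-induced uveitis (EIU) was induced 4 weeks later with 10 ng of lipopolysaccharide (LPS) injected into the vitreous. From each retina 600 live, brightly tdTomato-positive cells were sorted, amplified as cDNA and sequenced. The groups were naïve (10 retinas, no injection) and 3 times after LPS, with 6 retinas collected after 4 h, 5 after 18 h and 7 after 2 weeks. Experiment 1 gave 6, 3, 4 and 4 retinas of these groups in that order, and experiment 2 gave 4, 3, 1 and 3. No retina was injected with vehicle, so that the injection itself and LPS cannot be told apart, and the Cx3cr1 locus that drives Cre is active in other myeloid cells besides microglia. The study chose the 3-day regime by flow cytometry for the specificity of its label to microglia.

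Type I interferons are secreted by cells that recognise microbial molecules. LPS is bound by CD14, MD-2 and TLR4, whose TRIF arm activates IRF3 through the kinases TBK1 and IKKε and so switches on the interferon-β gene. Secreted interferon binds the receptor IFNAR1-IFNAR2 on the same or neighbouring cells, the kinases JAK1 and TYK2 are activated, and the transcription factor complex ISGF3, which includes STAT2 and IRF9, enters the nucleus. ISGF3 and the IRF proteins recognise repeats of GAAA in the promoters of interferon-stimulated genes. In microglia, the resident macrophages of the retina and brain, this programme accompanies infection, injury and ageing.

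The promoter windows of the members that carried such repeats are shown because these letters are shared by several of the genes that changed most. RefSeq promoters of build GRCm38.p6, each with 250 bases before and 50 bases after the start of transcription, were listed for 32 of the 43 members and searched on either strand for GAAA followed by any 2 bases and GAAA again, a core of the interferon-stimulated response element. A match was present in 12 of the 32 members (37.5%), against 3.99% of the 27025 genes with a promoter. The 12 genes were Ifit1, Ifit3, Ifit3b, Isg15, Oas1a, Oas1g, Oas3, Ifih1, Ddx58, Eif2ak2, Rsad2 and Phf11b. Capitals mark the matches, on the strand of the gene, and TTTC, 2 bases and TTTC are the same motif read on the opposite strand. Ifit1 lies at chr19:34640773-34640825 on the plus strand, Ifit3 at chr19:34583361-34583428 (plus), Ifit3b at chr19:34607757-34607824 (plus), Isg15 at chr4:156200863-156200908 (minus), Oas1a at chr5:120907526-120907557 (minus), Oas1g at chr5:120887614-120887643 (minus) and Rsad2 at chr12:26456551-26456584 (minus). Every one of these windows lies upstream of the start of transcription. In the GENCODE annotation of GRCm38 other genes on which the results turn are Ifih1 (chr2:62595798-62646255, minus strand), Zbp1 (chr2:173206612-173218923, minus), Mx2 (chr16:97535308-97560900, plus), Isg20 (chr7:78913424-78920396, plus), Ifi27l2a (chr12:103442167-103443680, minus) and Ifnb1 (chr4:88522025-88522774, minus).
Ifit1: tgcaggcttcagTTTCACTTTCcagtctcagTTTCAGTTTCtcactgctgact
Ifit3: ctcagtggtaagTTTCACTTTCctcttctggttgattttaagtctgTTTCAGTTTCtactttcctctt
Ifit3b: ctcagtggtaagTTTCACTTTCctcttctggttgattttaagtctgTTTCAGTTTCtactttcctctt
Isg15: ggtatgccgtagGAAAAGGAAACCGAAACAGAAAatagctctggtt
Oas1a: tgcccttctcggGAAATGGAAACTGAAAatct
Oas1g: tgcccttctcggGAAATGGAAACTGAAAat
Rsad2: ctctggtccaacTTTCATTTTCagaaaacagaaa

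Ifit1, Ifit3 and Ifit3b carried 2 separate matches each, Isg15 carried 3 that overlapped in a single run, and Oas1a and Oas1g carried 2 that overlapped. The shown windows of Ifit3 and Ifit3b were identical in every base, and so were those of Oas1a and Oas1g over their shared length. A second motif, TTCNNNGAA with N for any base, to which STAT dimers bind, was matched in 6 of the 32 members (18.8%) and in 9.55% of all genes with a promoter. A match is a run of letters and was not tested as a site of binding.

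**Figure D1:**
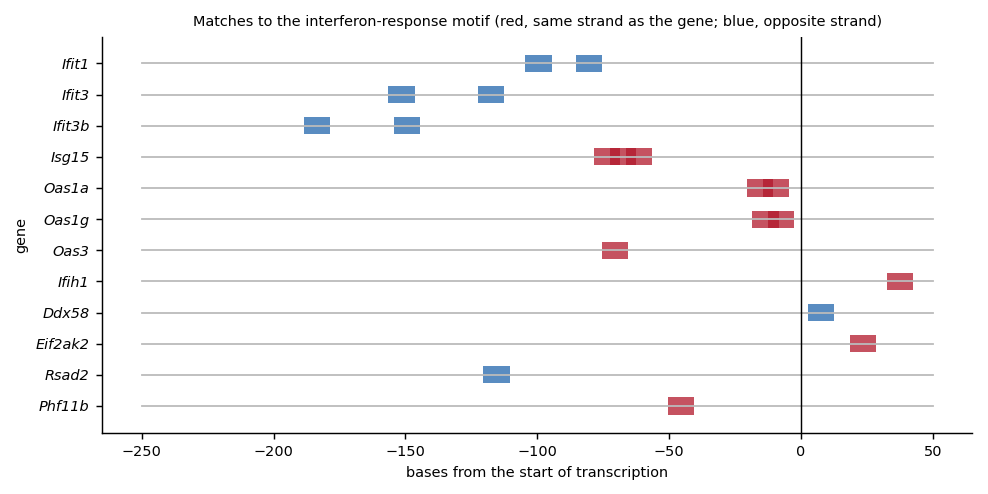
Positions of the interferon-response motif in the promoter windows of the 12 members that held it. The horizontal axis gives the distance in bases from the start of transcription, each grey line is a window from 250 bases before to 50 bases after it, and boxes are matches (red, same strand as the gene, blue, opposite strand, darker where matches overlap). Matches of Ifih1, Ddx58 and Eif2ak2 lay after the start, and those of the other 9 genes before it.

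The deposited values are RPKM, in which a read number is divided by transcript length and library size, and rest on 7510000 to 19700000 alignments per retina. Values under 1 RPKM rest on few reads, and a value listed at 0 may be a failed estimate of the authors' method. The 10 microglia markers were all present in every group, with summed levels of 6692 to 13440 RPKM in naïve, 2178 to 6818 at 4 h, 3926 to 6237 at 18 h and 7892 to 13030 at 2 weeks, and 4 of the 10 fell at 4 h and 7 at 18 h. Of 9 lymphocyte markers 0 reached an RPKM of 1 in naïve and 4 h retinas, whereas 5 did at 18 h, when their summed level was 7.12 to 352.7 RPKM. The 5 were Cd8a, Nkg7, Gzma, Klrb1c and Ncr1, while Cd3e, Cd3g, Cd79a and Ms4a1 stayed under 1 at 18 h. The T cell genes Cd3e and Cd8a still exceeded every naïve retina in 4 of the 5 retinas at 18 h, and Cd3g in 3. Of 7 monocyte markers 4 reached 1 at 18 h against 1 in naïve retinas, and of 9 neutrophil markers 3 against 0. All 10 rod photoreceptor markers were present in every group. In 4 retinas (naïve 3 and 4, 18 h 4 and 2 weeks 1) between 6552 and 7088 genes reached an RPKM of 1, against 8137 to 11825 in the others, and the main counts are also given without them.

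Naïve cells expressed most of the effectors at a low level. The median naïve RPKM was at least 1 for 36 of the 43 members and at least 10 for 11 of them, and 17 members were listed at 0 in at least 1 naïve retina. The most abundant was Ifi27l2a, a small hydrophobic membrane protein, with naïve values between 34.7 and 331 and a median of 97.8 RPKM. Phf11b (median 67.9), Ifit3 (56.5) and Rtp4 (47.2) followed. Oas3, an oligoadenylate synthetase, did not exceed 0.674 RPKM in any retina, and Helz2, a helicase that acts as a transcriptional coactivator, did not exceed 1.51. These 2 genes failed the filter, which kept a gene that reached 1 RPKM in 5 or more of the 28 retinas, and 41 members were tested. Each of the 41 also reached an RPKM of 1 in at least 5 of the 17 naïve and 2-week retinas. The members together took 0.0765% to 0.251% of the summed RPKM of naïve retinas, and the share was 0.115% to 0.969% at 4 h, 0.206% to 0.835% at 18 h, and 0.0913% to 0.290% at the last time. In these bulk samples a smaller number of expressing cells and less RNA per cell cannot be told apart.

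**Figure D2:**
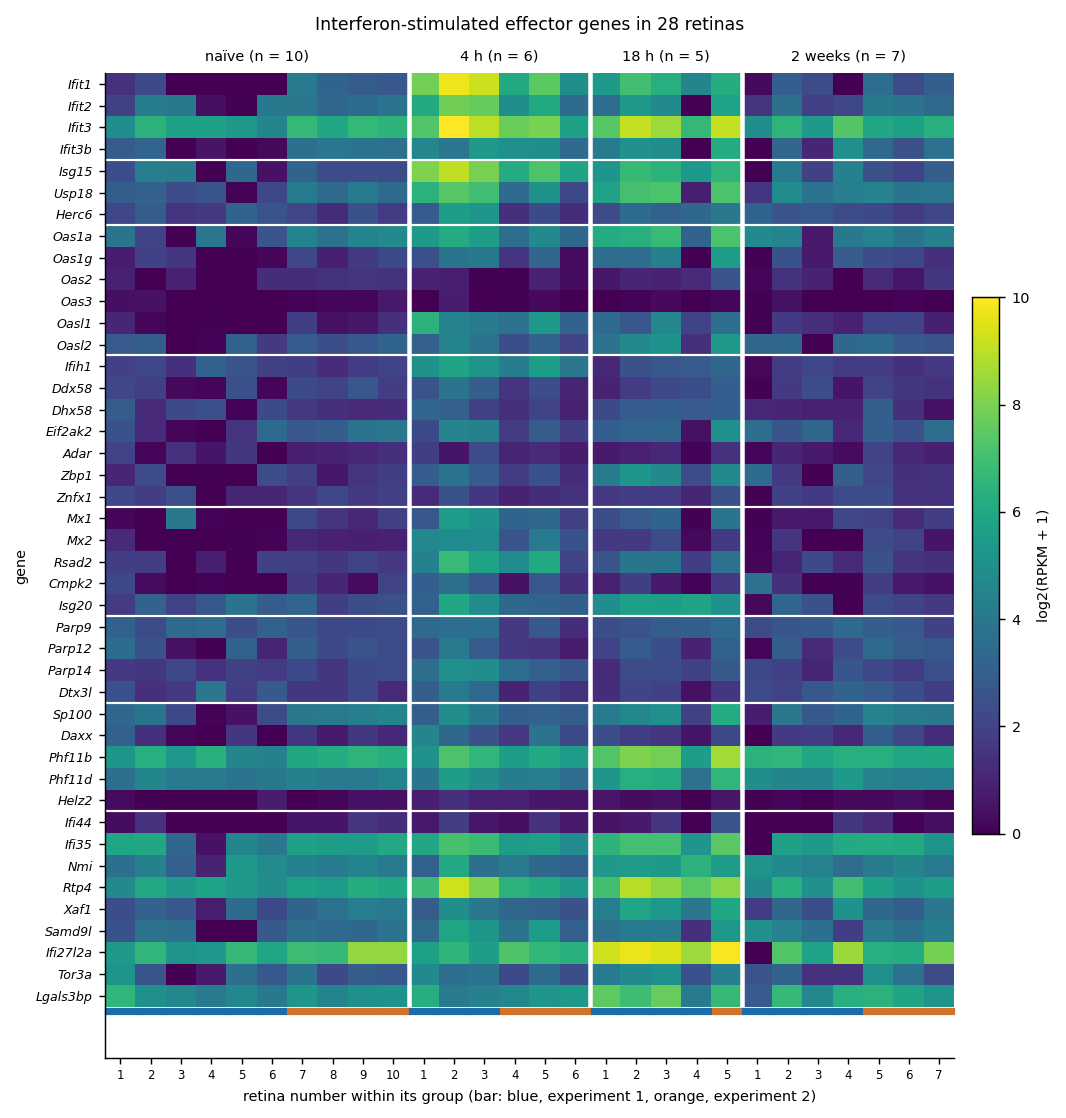
Levels of the 43 members as log2(RPKM + 1) in each of the 28 retinas, with genes in rows by function and retinas in columns by group and number. The bar under the columns marks experiment 1 (blue) and experiment 2 (orange). Ifit1 and Isg15 were bright in all 6 retinas at 4 h, and Ifi27l2a in all 5 at 18 h. At 4 h the 3 retinas of experiment 1 were all above the 3 of experiment 2 in 16 of the 41 tested members.

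At 4 h after LPS 12 of the 41 tested members rose and 0 fell, where a change required a Benjamini-Hochberg adjusted p of at most 0.05 in limma and a difference of at least 2-fold. Over all 13164 genes tested 3.68% rose by this rule and 4.39% fell. The members that rose were Ifit1, Ifit2, Ifit3, Isg15, Oasl1, Ifih1, Mx1, Mx2, Rsad2, Parp14, Daxx and Rtp4. The median log2 fold change was 1.26 over the members, 37 of which had a positive value, and -0.11 over all genes. Without the 4 retinas with few genes, 2 of them naïve, 15 members rose, with a median of 0.80 and 35 positive values. Fold changes were computed from log2(RPKM + 1), so that the change of a gene with low levels appears smaller than it was. Within experiments, 21 members rose in experiment 1 and 5 in experiment 2, and 7 members had all 6 retinas above the highest naïve retina, which was true of 1.65% of all genes.

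The IFIT proteins bind foreign RNA and stop its translation, and 3 of the 4 rose. Ifit1 ranged from 0 to 16.1 RPKM in naïve retinas with a median of 2.68, and it was listed at 0 in 4 of them. At 4 h its values were 233, 849 and 607 in experiment 1 and 65.6, 178 and 30.9 in experiment 2. Every 4 h retina lay above every naïve retina, and the 3 of experiment 1 above the 3 of experiment 2. The log2 fold change was 5.91 ± 0.72 (SE, limma adjusted p = 4.0e-07), the largest rise of any member. Ifit3 ranged from 22.6 to 100.4 in naïve retinas (median 56.5), and at 4 h it was 153, 1004 and 517 in experiment 1 and 214, 249.6 and 51.5 in experiment 2. All but the last of these retinas were above the naïve range, and the log2 fold change was 2.10 ± 0.49 (adjusted p = 0.0042). Ifit2 rose by 3.08 ± 0.77 on the log2 scale (adjusted p = 0.0079), and Ifit3b differed by 2.36 ± 0.81 (adjusted p = 0.067). The levels of Ifit3 and Ifit3b are uncertain, since 41.11% and 35.67% of the runs of 75 bases in their transcripts occur in the other gene.

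Isg15 is a ubiquitin-like protein that is conjugated to newly made proteins, Usp18 the protease that removes it and restrains the interferon receptor, and Herc6 its main ligase in mouse. Isg15 was between 0 and 18.5 RPKM in naïve retinas (median 4.23), and 269, 528 and 244 in experiment 1 and 71.0, 146 and 56.6 in experiment 2 at 4 h. The 4 h retinas did not overlap with the naïve ones, and Isg15 rose by 4.88 ± 0.62 (log2, limma adjusted p = 1.1e-06). Usp18 had naïve values from 0.0693 to 16.5 (median 7.24). Its 4 h values were 84.1, 166 and 122 in experiment 1 and 10.2, 34.0 and 3.62 in experiment 2, so that 4 of 6 retinas exceeded the naïve range. The difference of 2.42 ± 0.80 missed the threshold (adjusted p = 0.057), as did that of Herc6 (0.95 ± 0.51, adjusted p = 0.29).

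The OAS enzymes make 2′-5′ oligoadenylates, which activate the RNA-degrading enzyme RNase L, and 1 of the 5 tested rose. This was Oasl1, a relative without that activity that restrains the translation of Irf7. Oasl1 was between 0 and 2.59 RPKM in naïve retinas (median 0.246), and at 4 h 84.2, 20.5 and 16.1 in experiment 1 and 12.6, 40.6 and 8.18 in experiment 2. Again no 4 h retina overlapped with a naïve one (log2 fold change 3.98 ± 0.45, limma adjusted p = 1.0e-07). Oas1a ranged up to 26.1 in naïve retinas with a median of 13.1, and its 4 h values were 42.7, 71.0 and 46.6 against 10.8, 26.4 and 9.08 in experiments 1 and 2. All retinas of experiment 1 were above the naïve range, only 1 of experiment 2 was, and the difference did not pass (1.79 ± 0.73, adjusted p = 0.14). Oas1a and Oas1g share 47.6% and 44.61% of their runs of 75 bases, so the split of reads between them is uncertain.

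Of the 7 genes for sensing and editing nucleic acids, Ifih1 rose. Ifih1 encodes MDA5, a sensor of long double-stranded RNA. It was between 1.39 and 7.59 RPKM in naïve retinas (median 2.80), and 33.5, 56.7 and 35.0 in experiment 1 and 17.8, 45.9 and 14.8 in experiment 2 at 4 h. The groups did not overlap, the retinas of both experiments were high, and the log2 fold change was 2.99 ± 0.37 (limma adjusted p = 5.1e-07). The other RNA sensor of that family, Ddx58 (RIG-I), had 4 h values of 5.04, 13.5, 7.23, 1.91, 4.17 and 1.05 against a naïve range of 0.120 to 5.49 (0.82 ± 0.47, adjusted p = 0.34). Eif2ak2 (PKR), which halts translation on binding double-stranded RNA, was 3.76, 22.3, 19.5, 2.38, 6.54 and 2.5 at 4 h against 0 to 14.7 (0.70 ± 0.64, adjusted p = 0.59). In each of these genes the 2 retinas above the naïve range belonged to experiment 1. Zbp1, a sensor of left-handed nucleic acids that can start necroptosis, was 6.6, 13.3, 6.62, 2.36, 4.70 and 1.5 at 4 h, above the naïve maximum of 4.13 in 4 retinas (1.37 ± 0.51, adjusted p = 0.10). The RNA-editing enzyme Adar stayed between 0.488 and 4.01, beside a naïve maximum of 3.04 (0.29 ± 0.33, adjusted p = 0.68).

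Among the antiviral enzymes and GTPases 3 of 5 rose. Rsad2 (viperin), which makes a chain-terminating nucleotide, was at most 3.13 RPKM in naïve retinas (median 2.35), and 20.3, 110.1 and 54.4 in experiment 1 and 27.6, 68.9 and 3.19 in experiment 2 at 4 h. The lowest 4 h retina lay just above the highest naïve one, and the log2 fold change was 3.64 ± 0.53 (limma adjusted p = 9.1e-06). Mx2, a dynamin-like GTPase that the annotation lists as a polymorphic pseudogene, was 24.5, 27.8 and 28.0 in experiment 1 and 5.15, 15.8 and 4.72 in experiment 2, against a naïve range of 0 to 1.28. It did not overlap with naïve retinas either (3.41 ± 0.43, adjusted p = 8.7e-07). Mx1 was 5.58, 43.3, 34.5, 8.22, 9.17 and 2.71 at 4 h against a naïve median of 0.650, and since a single naïve retina reached 15.1 the groups overlapped (2.53 ± 0.61, adjusted p = 0.0058). The mitochondrial nucleotide kinase Cmpk2 was 6.87, 12.1, 5.63, 0.378, 5.58 and 1.62 (1.56 ± 0.51, adjusted p = 0.054). The RNA exonuclease Isg20 was 7.62, 60.9, 28.5, 9.04, 8.45 and 7.18, above the naïve maximum of 13.5 in 2 retinas of experiment 1 (1.28 ± 0.47, adjusted p = 0.094).

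In each of the 3 remaining groups a single gene rose. The ADP-ribosyltransferase Parp14 went from a naïve range of 1.79 to 3.89 RPKM to 11.3, 31.8 and 28.8 in experiment 1 and 11.2, 7.43 and 5.13 in experiment 2, without overlap (log2 fold change 1.92 ± 0.35, limma adjusted p = 2.6e-04). Parp9, Parp12 and Dtx3l differed by between 0.02 and 0.43. The histone chaperone Daxx was 22.6, 9.07, 4.52, 2.16, 13.2 and 3.74, and 3 of these retinas were above the naïve maximum of 7.64 (1.88 ± 0.48, adjusted p = 0.0091). Rtp4, a chaperone of receptors, was 112, 620.4 and 270.0 in experiment 1 and 83.8, 69.0 and 40.4 in experiment 2 against a naïve maximum of 72.1 (1.45 ± 0.44, adjusted p = 0.032). This call was lost when any 1 of the 3 retinas of experiment 1 at 4 h was left out, or 1 of the naïve retinas (adjusted p up to 0.15). Xaf1, a partner of the apoptosis inhibitor XIAP, Ifi27l2a and the secreted galectin-3-binding protein Lgals3bp had log2 differences of 0.47 ± 0.50, -0.20 ± 0.76 and 0.10 ± 0.52 and did not pass.

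**Figure D3:**
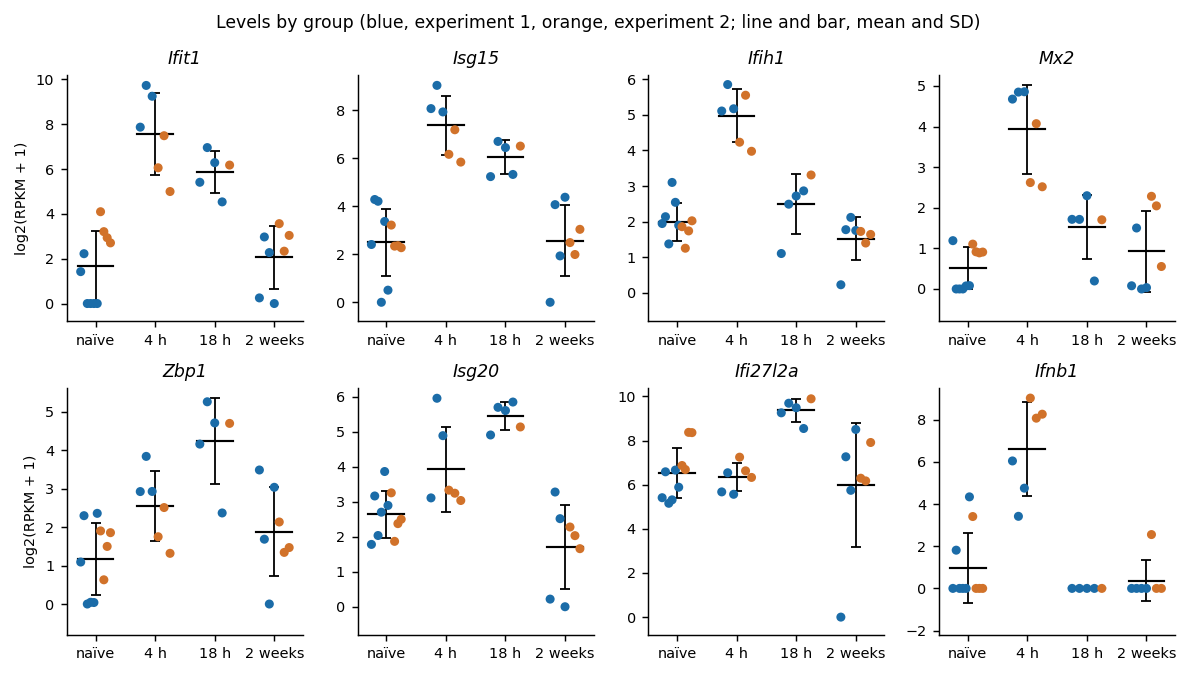
Levels of 7 members and of Ifnb1 as log2(RPKM + 1) by group, where each point is a retina (blue, experiment 1, orange, experiment 2), the line is the mean and the bar 1 SD (n = 10, 6, 5 and 7). Ifih1 and Mx2 were high at 4 h and low at 18 h, Zbp1, Isg20 and Ifi27l2a were highest at 18 h, and Ifnb1 was listed at 0 in all 5 retinas at 18 h.

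At 18 h, when leukocytes enter the retina in this model, 14 of the 41 members rose and 0 fell, beside 2.84% and 1.85% of all genes. The genes were Ifit1, Ifit3, Isg15, Oas1a, Oas1g, Oasl1, Zbp1, Isg20, Phf11b, Phf11d, Nmi, Rtp4, Xaf1 and Ifi27l2a. The median over the members was 1.48, with 39 positive values, and -0.08 over all genes. Every 18 h retina exceeded the highest naïve retina in 7 members and in 2.05% of all genes. The summed level of the lymphocyte markers in the 5 retinas was 7.12, 61.4, 12.6, 352.7 and 72.0 RPKM, against at most 0.470 at 4 h, and it was highest in the fourth retina, where the mean log2(RPKM + 1) of the members was lowest (2.48, beside 3.55 to 4.64 in the others). In that retina 6969 genes reached an RPKM of 1, against 9499 to 10220 in the others of its group. The summed level of the monocyte markers at 18 h was 0.0321 to 32.7 RPKM (median 8.69, against 0.522 in naïve retinas) and that of the neutrophil markers 0 to 15.8, against at most 0.200 in naïve retinas. The part of these cells in the values was not tested. When all retinas were scaled to the same summed RPKM, 9 members rose.

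Ifit1 at 18 h was 41.5, 123, 77.0, 22.2 and 71.4 RPKM, all above the naïve maximum of 16.1 (log2 fold change 4.21 ± 0.76, limma adjusted p = 5.4e-04). Isg15 was 36.8, 104, 86.6, 39.3 and 90.4, also all above naïve (3.55 ± 0.66, adjusted p = 8.5e-04). Ifit3 was 166, 536, 368, 99.9 and 559.7, and all but the fourth retina exceeded the naïve range (2.31 ± 0.52, adjusted p = 0.0059). The fourth 18 h retina is the 1 with the fewest genes, and it was the lowest of its group for Ifit1 and Ifit3. In Usp18 it read 0.852 while the others read 52.5, 133, 144 and 143, and the group difference was 2.77 ± 0.85 (adjusted p = 0.055). Without the 4 retinas with few genes 20 members rose at 18 h, Usp18 among them.

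Of the OAS family 3 of 5 rose. Oas1a was 70.0, 78.7, 104, 8.04 and 144 RPKM (log2 fold change 2.89 ± 0.77, limma adjusted p = 0.023), 4 of them above the naïve range and the fourth retina within it. Oasl1 was 10.2, 5.51, 24, 3.04 and 11.3, all above the naïve maximum of 2.59 (2.73 ± 0.48, adjusted p = 3.8e-04). Oas1g passed narrowly (2.25 ± 0.67, adjusted p = 0.048). Its call was lost in 19 of the 28 fits that each left out 1 retina.

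Of the sensors only Zbp1 passed at 18 h. Its values were 16.9, 37.4, 25.2, 4.17 and 25 RPKM, all above the naïve maximum of 4.13, the fourth barely so (log2 fold change 3.07 ± 0.54, limma adjusted p = 4.7e-04). Ifih1 was 1.15, 4.63, 5.60, 6.29 and 8.93, mostly within its naïve range (0.51 ± 0.39, adjusted p = 0.55), and Ddx58, Eif2ak2 and Adar had differences of 0.48, 0.78 and -0.15. Among the antiviral enzymes Isg20 rose, with 28.9, 50.7, 47.5, 56.4 and 34.1 against a naïve maximum of 13.5 (2.79 ± 0.50, adjusted p = 5.2e-04). The fourth retina was the highest of the group for Isg20. Mx1 (4.21, 6.28, 8.40, 0.0483 and 13.8), Rsad2 (5.15, 13.9, 14.0, 2.66 and 12.5) and Cmpk2 (at most 2.62) did not pass, with differences of 1.39, 1.84 and 0.27.

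Of the nuclear proteins Phf11b and Phf11d, 2 PHD-finger genes, rose by 1.77 ± 0.42 and 1.44 ± 0.37 (limma adjusted p = 0.0091 and 0.018), while Daxx was 4.30, 2.64, 1.99, 0.490 and 3.79 RPKM, inside its naïve range (0.61 ± 0.51). Of the runs of 75 bases of Phf11b and Phf11d, 26.85% and 9.22% occur in another gene, so the reads given to each are uncertain. Of the 9 other effectors 4 rose. Ifi27l2a reached 612, 827, 718, 373 and 951 RPKM, all above the naïve maximum of 331 (2.84 ± 0.80, adjusted p = 0.033). Rtp4 was 124, 479, 324, 174 and 303, also without overlap (2.41 ± 0.46, adjusted p = 0.0012), and Xaf1 was 19.1, 58.1, 39.1, 14.7 and 62.0, with 4 of 5 retinas above naïve (2.08 ± 0.53, adjusted p = 0.015). Lgals3bp was 180.4, 119, 204, 17.1 and 104, again low in the fourth retina only (1.7 ± 0.55, adjusted p = 0.068). Nmi, which binds STAT proteins, passed at an adjusted p of 0.045 and lost its call in 17 of 28 fits without 1 retina. Experiment 2 gave a single 18 h retina, the fifth, and without it 7 members rose, since Ifi27l2a, Nmi, Oas1a, Oas1g, Phf11b, Phf11d and Xaf1 no longer passed. Experiment 1 alone called 6 members.

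Between 4 h and 18 h, 3 members fell and 1 rose in the direct comparison of the groups, beside 2.51% of all genes that fell and 2.92% that rose. The members that fell were Ifih1 (-2.48 ± 0.43 on the log2 scale, limma adjusted p = 2.6e-04), Mx2 (-2.41 ± 0.50, adjusted p = 0.0027) and Parp14 (-1.71 ± 0.41, adjusted p = 0.0089). Mx2 went from 4.72 to 28.0 RPKM at 4 h to 2.28, 2.28, 3.91, 0.146 and 2.26 at 18 h, and every 18 h retina was below every 4 h retina. Parp14 was 1.31, 3.88, 3.84, 2.89 and 5.89 at 18 h, and the last of these overlapped with its 4 h values and exceeded its naïve maximum of 3.89. Ifi27l2a was the member that rose, by 3.04 ± 0.89 (adjusted p = 0.037). It was 50.1, 92.3, 46.4, 151, 98.1 and 79.5 at 4 h, within its naïve range, and the only member whose 18 h retinas were all above all 4 h retinas, as were those of 4.84% of all genes. Its call was lost in 8 of 28 fits without 1 retina.

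The median difference of the members between 18 h and 4 h was 0.12. In experiment 1 it was -0.86, with 10 of 41 members positive, and in experiment 2 it was 1.65 with 34 positive, where the 18 h value is that of a single retina and the difference between the experiments was not tested. In experiment 1 alone 3 members passed and all 3 were lower at 18 h. The split of calls depended on the setting, since quantile normalisation gave 0 higher and 3 lower, a pseudocount of 10 gave 5 higher and 3 lower, untransformed RPKM gave 9 higher and 4 lower, and the fit without the 4 retinas with few genes gave 7 higher and 3 lower.

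**Figure D4:**
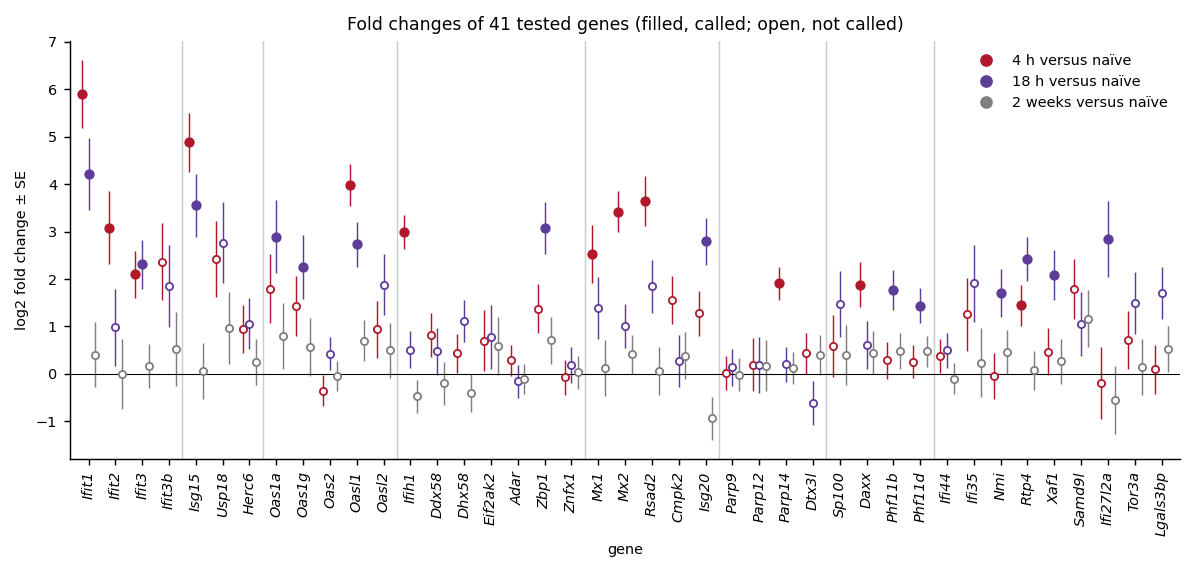
Log2 fold changes of the 41 tested members in the 3 groups given LPS against the 10 naïve retinas, on the log2(RPKM + 1) scale with the SE as bars. Filled points, of which there are 12 for 4 h, 14 for 18 h and none for 2 weeks, passed an adjusted p of 0.05 and a 2-fold change, and vertical lines separate the functional groups. The 3 comparisons share the naïve retinas.

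At 2 weeks after LPS 0 of the 41 members differed from naïve retinas in limma, beside 0.00760% of all genes, which is 1 gene. At an unadjusted p under 0.05 there was 1 member, Isg20, which was 0 to 8.68 RPKM at 2 weeks with a median of 3.08 against 5.07 in naïve retinas (-0.93 ± 0.45, adjusted p = 1.0), and among all genes 378 of 13164 were past that level. Ifit1 was 0 to 10.8 RPKM with a median of 4.05 (log2 difference 0.40 ± 0.68), Isg15 0 to 19.8 with a median of 4.62 (0.06 ± 0.60), and Zbp1 0 to 10.2 with a median of 2.22 (0.71 ± 0.49). All 3 ranges overlapped with the naïve range. The largest positive difference was that of Samd9l, a restrictor of virus replication, at 1.17 ± 0.61. Of the 7 retinas at 2 weeks, 4 exceeded every naïve retina for Samd9l and Oasl2, and 3 did for Usp18, Oas1g, Mx2 and Ifi35. For Isg20, 3 lay below every naïve retina. The share of all genes with such counts was not taken. The median over the members was 0.25 and 32 were positive, beside 0.07 over all genes.

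From 18 h to 2 weeks, a comparison that shares the 18 h retinas with the others, 8 members fell and 0 rose, beside 1.55% and 1.10% of all genes. They were Ifit1 (-3.81), Isg20 (-3.72), Isg15 (-3.49), Ifi27l2a (-3.39), Zbp1 (-2.36), Rtp4 (-2.34), Ifit3 (-2.14) and Oasl1 (-2.03 on the log2 scale). Isg20 had the smallest adjusted p (3.9e-05) with 28.9 RPKM in its lowest 18 h retina and 8.68 in its highest 2-week retina. Ifi27l2a had 1 retina listed at 0 at 2 weeks beside values up to 362, and it passed at an adjusted p of 0.025. Experiment 1 alone called 2 of the members, and leaving out the third or the fifth 18 h retina called 4.

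The 4 h response differed in size between the experiments for Ifit1, the single member past the threshold of an adjusted p of 0.05 for the difference itself, beside 0.0912% of all genes that were lower in experiment 2 by that test. Its response was smaller in experiment 2, with a limma interaction of -5.40 ± 1.03 on the log2 scale (adjusted p = 0.027). It rose by 8.34 ± 0.70 in experiment 1 (adjusted p = 2.4e-09) and by 2.94 ± 0.75 in experiment 2 (adjusted p = 0.037). Naïve levels of Ifit1 differed too: 4 of the 6 naïve retinas of experiment 1 were listed at 0 and the highest reached 3.67 RPKM, whereas those of experiment 2 were between 5.53 and 16.1. The call was lost with 4 of 12 other settings and in 10 of the 28 fits without 1 retina. The adjusted p reached 1.0 with the replicate number as a block, 0.31 with a pseudocount of 0.1 and 0.18 without 1 retina.

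The next members by p were Usp18 (-4.86 ± 1.41, limma adjusted p = 0.35) and Mx2 (-2.45 ± 0.72, adjusted p = 0.35), which did not pass, though Usp18 did when the 4 retinas with few genes were left out. Usp18 read 84.1, 166 and 122 RPKM at 4 h in experiment 1 from a naïve range of 0.0693 to 7.82, and 10.2, 34.0 and 3.62 in experiment 2 from a naïve range of 9.59 to 16.5. Mx2 rose in both experiments, by 4.57 ± 0.49 and 2.11 ± 0.53 (adjusted p = 2.0e-07 and 0.029). The interaction was negative for 40 of 41 members, the exception being Lgals3bp at 0.08, with a median of -2.05 beside -0.19 over all genes.

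In experiment 1, 21 members rose at 4 h, beside 3.94% of all genes, and 5 rose in experiment 2, beside 1.25%. The 5 were Isg15 (3.85), Oasl1 (3.02), Ifit1 (2.94), Ifih1 (2.87) and Mx2 (2.11 on the log2 scale), and each also rose in experiment 1. Without the second 4 h retina 12 members rose in experiment 1, and without the fifth 1 rose in experiment 2. With experiment 1 fitted alone 14 members rose and 0 fell. With experiment 2 fitted alone 7 members rose and 2, Parp12 and Sp100, fell. The median log2 fold change was 2.26 with all 41 positive in experiment 1 and -0.07 with 19 positive in experiment 2. Without the 4 retinas with few genes, of which 2 were naïve retinas of experiment 1, the median in experiment 1 was 1.72 with 38 positive. In 16 members the 3 retinas of experiment 1 at 4 h were all above the 3 of experiment 2, and in 0 members all below, beside 5.14% and 12.4% of all genes. These were Cmpk2, Ddx58, Dtx3l, Herc6, Ifi35, Ifit1, Isg15, Mx2, Oas1a, Parp12, Parp14, Parp9, Rtp4, Tor3a, Usp18 and Zbp1, and for a single gene an exact permutation test of 3 against 3 cannot go below p = 0.10.

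The mean log2(RPKM + 1) of the members was 1.47 to 2.65 in naïve retinas of experiment 1 and 2.56 to 2.99 in those of experiment 2. At 4 h it was 3.92 to 4.97 in experiment 1 and 2.63 to 3.82 in experiment 2, so that the groups were apart at 4 h and overlapped narrowly in naïve retinas. The naïve retinas of experiment 1 had 6552 to 11825 genes at an RPKM of at least 1 and those of experiment 2 11129 to 11429. The summed level of the 10 rod photoreceptor markers at 4 h was 986 to 4210 RPKM in experiment 1 and 4210 to 5846 in experiment 2, and the part of these values in the difference was not tested. The labels give the experiments only as a number, so that whatever else differed between them cannot be told apart from the experiment.

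Other gene lists were not all alike in this respect. These lists too were chosen with earlier results of these data known, so their calls are no independent test. All 20 NF-kappa B target genes, inflammatory genes that TLR4 also switches on, rose at 4 h. Of the 20, 19 were called in experiment 1 and 17 in experiment 2. Their summed level at 4 h was 54754 to 75609 RPKM in experiment 1 and 53898 to 77554 in experiment 2, and 10 of the 20 interactions were positive. Of 15 interferon-inducible GTPases tested, which attack vacuoles of intracellular pathogens, 6 rose at 4 h, 10 in experiment 1 and 2 in experiment 2. Their median interaction was -2.09 with 0 of 15 positive, and their summed level at 4 h was 322 to 1072 RPKM in experiment 1 and 79.6 to 247 in experiment 2. By the same rule 3.68% of all genes rose at 4 h, 3.94% in experiment 1 and 1.25% in experiment 2.

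**Figure D5:**
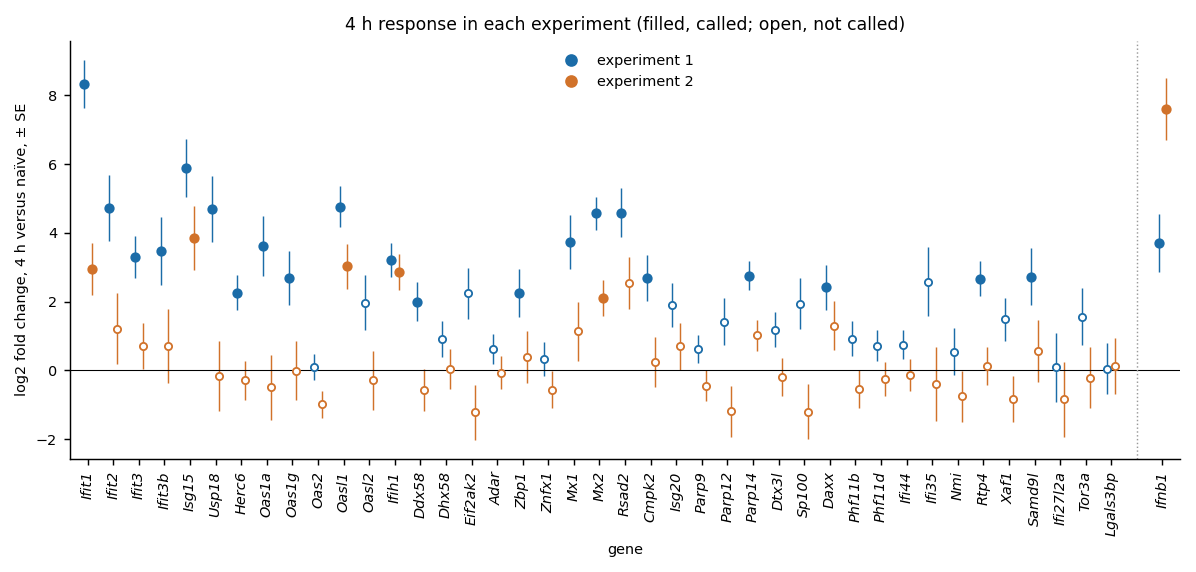
The 4 h response of the 41 tested members and of Ifnb1 in each experiment, as the log2 fold change against the naïve retinas of the same experiment on the log2(RPKM + 1) scale with its SE (n = 3 against 6 in experiment 1 and 3 against 4 in experiment 2). Filled points passed the thresholds, 21 members in experiment 1 and 5 in experiment 2, and to the right of the dotted line Ifnb1 rose by 3.72 and 7.61.

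Of the 39 upstream genes of the pathway, 30 were tested. At 4 h 8 of them rose and 2 fell, beside 3.68% and 4.39% of all genes. The ligand Ifnb1 was the only interferon that passed the filter. It was listed at 0 in 7 of 10 naïve retinas and reached 19.3 RPKM in the others. At 4 h it was 65.2, 9.71 and 26.0 in experiment 1 and 522, 269 and 307 in experiment 2, so that 5 of 6 retinas exceeded the naïve range. Ifnb1 rose by 5.64 ± 0.72 on the log2 scale (limma adjusted p = 1.1e-06), and it was listed at 0 in all 5 retinas at 18 h and in 6 of 7 at 2 weeks. All retinas of experiment 2 were above those of experiment 1 at 4 h, the opposite order to Ifit1. The order of Ifnb1 was found in 12.4% of all genes and that of Ifit1 in 5.14%. The rise of Ifnb1 was 3.72 ± 0.84 in experiment 1 and 7.61 ± 0.91 in experiment 2. Its interaction of 3.89 ± 1.23 did not pass (limma adjusted p = 0.48). Ifna4 was at 11.2 and 1.60 RPKM in 2 of the 4 h retinas of experiment 2 and Ifna2 at 7.21 in 1 of these, and both were listed at 0 in the other 4 h retinas. Ifnk exceeded its naïve maximum of 0.139 RPKM in 1 of the 6 retinas at 4 h. In the second 4 h retina, of experiment 1, all listed interferons together reached 14.8 RPKM, beside 9.71 for Ifnb1.

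Of the 4 receptor genes tested 0 passed at 4 h and 0 at 18 h. Ifnar1 was 22.2, 4.62, 8.75, 2.80, 11.3 and 5.90 RPKM at 4 h beside a naïve range of 0.115 to 14.0 (log2 difference 0.74 ± 0.44, limma adjusted p = 0.36), and Ifnar2 differed by -0.14 ± 0.30 at 4 h and -0.04 ± 0.31 at 18 h. Stat2 and Irf9, which encode parts of ISGF3, did not pass in any of the 3 comparisons with naïve retinas. Stat2 was 24.3, 15, 10.6, 1.54, 8.72 and 1.34 at 4 h (1.04 ± 0.53, adjusted p = 0.26), and Irf9 differed by 0.59 ± 0.44. For Stat2 the 2 highest of these retinas, both of experiment 1, were above the naïve maximum of 11.1.

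Of the IRF factors Irf1 rose at 4 h and Irf7 at 18 h. Irf1 was 60.0, 13.5 and 18.8 RPKM in experiment 1 and 26.4, 99 and 32.7 in experiment 2, all above the naïve maximum of 10.7 (2.71 ± 0.63, limma adjusted p = 0.0043), and it fell again by 18 h (-2.79 ± 0.74 against 4 h, adjusted p = 0.020). Irf7, which amplifies interferon production, was 0 to 12.1 in naïve retinas, 22.5, 4.96, 4.75, 5.27, 13.5 and 4.16 at 4 h and 24.5, 14.3, 42.7, 9.94 and 26.0 at 18 h. Its difference was 1.68 ± 0.65 at 4 h (adjusted p = 0.11) and 3.05 ± 0.69 at 18 h (adjusted p = 0.0060). Irf3 and Irf8 differed by -0.54 and -0.79 at 4 h and did not pass. Of the LPS receptor, Tlr4 fell at 4 h, to between 0 and 1.63 RPKM (-2.15 ± 0.43, adjusted p = 9.7e-04), and Cd14 rose by 3.82. The naïve range of Tlr4 was 0.697 to 12.4 (median 8.94), and 2 of the 6 retinas at 4 h lay below it. The other pathway gene that fell was Ly96 (limma adjusted p = 0.024), whose call was lost in 3 of 28 fits without 1 retina. The inhibitors Socs1 and Socs3 rose by 1.73 ± 0.46 and 5.66 ± 0.59 (adjusted p = 0.013 and 2.8e-08), with Socs3 at 29.2 to 724 RPKM at 4 h and 0.884 to 12.9 at 18 h. At 18 h Irf7 and Ikbke were the 2 pathway genes that rose, beside 2.84% of all genes. At 2 weeks 0 of 30 passed in either direction, with 0 at an unadjusted p under 0.05.

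Calls were also counted by whether a member held the GAAA motif in its promoter window. Of 11 tested members with a match 5 rose at 4 h and 6 at 18 h, with median log2 fold changes of 2.10 and 1.85. Of 19 tested members with a promoter window but no match 3 rose at 4 h and 5 at 18 h, with medians of 0.59 and 1.06. Of the 11 members without a promoter entry 4 and 3 rose. The windows were listed above for 7 of the genes that held a match. Among them were Ifit1 and Isg15, with the 2 largest rises at 4 h. Oasl1, with the next largest rise (log2 fold change 3.98), had a promoter window without a match. The members with a match were not all independent. Ifit3 and Ifit3b shared the letters of their shown windows and part of their transcripts, and so did Oas1a and Oas1g. No test was made of the difference between members with and without a match.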

How the data were processed

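Sorted cells from 28 single retinas were profiled by RNA sequencing of amplified cDNA. The deposited values are RPKM per gene, which the authors made from reads aligned to mm10 with an expectation-maximisation quantification, so they are not read counts. The submitters' processing notes name bcl2fastq 2.20, STAR 2.5.3a and Partek. The strand setting is not given in the sources used here. The authors' tables comparing 4 h and 18 h with naïve retinas (p-values, ratios and fold changes) were not used.

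Genes with at least 1 RPKM in 5 or more retinas were kept (13164 of 40021), values were transformed as log2(RPKM + 1), and all retinas entered a linear model by group, with empirical Bayes moderation and a mean-variance trend, in limma 3.58.1 (R 4.3.3). The responses of the experiments at 4 h came from a second model with 1 mean for each group and experiment. P-values were adjusted by Benjamini-Hochberg over all genes tested, and a call required an adjusted p of at most 0.05 and, except for the interaction, a 2-fold change. The procedure was run on simulated data, in which changes were planted outside the lowest genes and deviations were shuffled over all retinas. The simulation therefore does not cover the lowest genes or deviations shared within an experiment. Sequences were read from RefSeq promoters and shared runs of 75 bases counted in GENCODE transcripts. Figures were drawn with matplotlib 3.10.9 in Python 3.11.15.

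The members, lists and named genes were chosen with earlier results of these data known. Values are given for 20 members picked by function, the 3 largest rises of each comparison with naïve retinas, the 3 members with the smallest interaction p and a set of pathway genes, and other members by counts or where a call or a named alternative touches them. Which retinas came from the same mouse is not stated, so p-values measure the spread between retinas. Depth was 7510000 to 19700000 alignments, and no interval from read counts can be given for RPKM. Retinas with the same replicate number in different groups did not deviate together, and pairs within a group were not examined. The values of 1 pathway gene are not reported here. Alternatives were other pseudocounts, filters, covariates, scalings and subsets, each retina left out in turn and, chosen after seeing the data, all fits without the 4 retinas with the fewest genes.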

Additional observations from a re-analysis of the deposited data

Results flagged for a closer look

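Within a group, 10 of 80 sets of values (20 members by 4 groups) held a retina farther from the others than Dixon's 95% limit on the log2(RPKM + 1) scale, and chance marks about 1 set in 20. The ubiquitin-like protein protease Usp18 was at 0.0693 RPKM in the fifth naïve retina while the others were at 3.52 to 16.5, at 0.852 in the fourth 18 h retina while the others were at 52.5 to 144, and at 1.85 in the first 2-week retina while the others were at 13.0 to 27.1. Oas1a was at 8.04 RPKM in the fourth 18 h retina, below 70.0 to 144 in the others, and at 0.599 in the third 2-week retina, below 14.0 to 26.3. In the first 2-week retina Ifih1 was at 0.173 RPKM, below 1.64 to 3.35, and Ifi27l2a was listed at 0 beside 52.7 to 362. In the first naïve retina Daxx was at 7.64 RPKM, above 0 to 2.06, and Lgals3bp at 95.2, above 15.7 to 36.6. Lgals3bp was at 17.1 RPKM in the fourth 18 h retina, below 104 to 204. The fourth 18 h retina and the first 2-week retina, with 3 of these values each, were among the 4 in which the fewest genes were detected.

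Ifit1 was the member whose 4 h response differed between the experiments by the test of the difference itself, with an interaction of -5.40 on the log2 scale.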

How the results depend on the processing

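The count of 12 members called at 4 h was 9 to 17 in the 15 alternatives, where the 9, from experiment 2 alone, held 7 higher and 2 lower, and 0 were called at 2 weeks in any of them. At 18 h the count of 14 became 6 in experiment 1 alone, 9 in experiment 2 alone, which has a single 18 h retina assumed to vary like the other groups, and 9 at equal summed RPKM. Between 18 h and 4 h the count of 4 became 2 with a pseudocount of 0.1, 8 with 10, 17 in experiment 2 alone with that single retina, 13 on untransformed RPKM and 10 without the 4 retinas with the fewest genes. From 18 h to 2 weeks the count of 8 became 4 with a pseudocount of 0.1, 5 without a filter, 5 with only the groups compared, 2 in experiment 1 alone and 14 without those 4 retinas. For the interaction the count of 1 became 0 with a pseudocount of 0.1, without a filter, with a filter at RPKM 5 and with the replicate block, 2 with a pseudocount of 10 and without the 4 retinas, and 3 on untransformed RPKM. In experiment 2 the count of 5 at 4 h became 1 with a pseudocount of 0.1, 3 without a filter, 9 with the experiment fitted alone (7 higher and 2 lower) and 3 at equal summed RPKM. Jak1, lower at 18 h than at 4 h, had a difference of 0.03 in experiment 2 alone. The causes were not tested.

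With each retina left out in turn the counts were 11 to 15 at 4 h, 7 to 18 at 18 h, 0 to 0 at 2 weeks, 3 to 8 for 18 h against 4 h, 4 to 12 for 2 weeks against 18 h, 0 to 2 for the interaction, 12 to 23 in experiment 1 and 1 to 6 in experiment 2. The count of 7 arose without the fifth 18 h retina, the count of 8 without the second 4 h or the fourth 18 h retina, the count of 4 without the third or the fifth 18 h retina, the count of 12 in experiment 1 without the second 4 h retina and the count of 1 without the fifth 4 h retina. Same-numbered retinas of different groups did not deviate together (mean correlation 0.048 over 34 pairs, beside 0.01 for different numbers), and the replicate block gave 17 calls at 4 h, 11 at 18 h, 0 at 2 weeks, 4 between 18 h and 4 h and 6 from 18 h to 2 weeks. With equal summed RPKM the median over all genes went from -0.11 to -0.28 (4 h) and from -0.08 to -0.26 (18 h), and that of the members from 1.26 to 1.00 and from 1.48 to 1.21. Values under about 1 RPKM rest on few reads, and their differences were not resolved.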
